A study of Mus musculus with 4 samples.

Results

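Open chromatin at 7 genes that act with or downstream of Sox9 in cartilage was examined in 4 ATAC-Seq libraries of mouse primary chondrocytes. The genes were Wwp2, Trps1, Arid5a, Arid5b, Zfp219, Creb5 and Nfatc2, chosen by name out of 18103 protein-coding genes whose symbols both gene annotations hold. A peak whose summit lay within 1 kb of an annotated transcription start site (TSS) of a gene was taken as a promoter peak, and all peaks in the gene body and 100 kb on each side were taken as its locus. The 7 loci held 126 of 76242 peaks in Cho1, 298 of 148330 in Cho2, 148 of 90971 in WT and 289 of 169591 in the deletion library. Cho2 was read with a second annotation, whose Creb5 record is longer. With the gene records of the other libraries, the loci held 268 peaks in Cho2.

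All libraries came from cells released from newborn rib cartilage with collagenase and used within a few passages. Cho had 2 replicates, Cho1 and Cho2, with no genotype label. WT and E160(delta/delta);E308(delta/delta), called the deletion here, had 1 library each. The deletion removes both E160 and E308, elements upstream of Sox9 on chromosome 11, in mice made by CRISPR/Cas9 in C57BL/6J embryos. None of the 7 genes lies on that chromosome. Per the study's methods, animals of either sex were used. Which sex each library came from, and whether cells of several animals were pooled, are not given in the sources used here. With 1 library per genotype, any difference between WT and the deletion is a difference between these libraries.

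Sox9 is the transcription factor that drives the cartilage programme, and it works through partners and through targets that feed back on it. Wwp2 encodes a HECT-type ubiquitin ligase that is induced by Sox9 and works with it, and an intron of Wwp2 carries the cartilage microRNA miR-140. Trps1 encodes a GATA-type zinc finger repressor of the growth plate, whose human counterpart is mutated in trichorhinophalangeal syndrome. Arid5a, Arid5b and Zfp219 encode nuclear partners of Sox9, of which Arid5b brings the histone demethylase Phf2 to target genes. Creb5 encodes a CREB-family factor of articular cartilage, and Nfatc2 encodes a calcium-regulated factor that restrains cartilage formation in adult joints.

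Of the 5 chondrocyte markers Sox9, Col2a1, Acan, Matn1 and Hapln1, 3 had a promoter peak in Cho1 and all 5 in each other library. Fibroblast and osteoblast markers (Col1a1, Bglap, Sp7) had promoter peaks at 1, 3, 2 and 3 of 3 genes in Cho1, Cho2, WT and the deletion. Myod1, of 2 muscle markers, had a promoter peak in every library but Cho1, and Pecam1, of 2 endothelial markers, had one in Cho1 (7.18), WT (8.31) and the deletion (16.5). The epithelial markers Krt5 and Krt14 and the blood marker Ptprc had none. The part of other cell types in the results was not tested. Cho1 had a background of 1.37 tags per position, Cho2 had 1.96, WT 0.361 and the deletion 0.626, so WT was the shallowest library by this measure.

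All 7 genes had a promoter peak in all 4 libraries, as did 58.8% of all genes. The share of all genes with a promoter peak was 62.6% in Cho1, 69.3% in Cho2, 65.9% in WT and 71.4% in the deletion. Strength is given as fold enrichment, the tag pileup at the summit over the background of the list with 1 added to both. Cho1 was called with a constant background and Cho2 with a local one. The Cho means and SDs given below thus join unlike measures, and the SD is not a plain spread of replicates. The members were of mixed strength. Their fold enrichment was above the median of all called promoters (12.7, 17.8, 12.8 and 12.7 in the same order) for 5, 2, 3 and 3 of the 7 genes. The annotation used for Cho2 lacks an Arid5b start, 142.1 kb into the gene, where the Cho2 fold enrichment was 27.1.

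The annotated starts of the 7 genes fall into 18 start regions when starts within 1 kb of each other are joined. Of these, 10 had a peak in all 4 libraries and 4 had none in any. Cho1 had a peak at 12, Cho2 at 14, WT at 10 and the deletion at 14. Start regions of other genes were not counted, so no share over all genes stands beside these counts. By summit pileup, the start inside the gene exceeded the first start for Wwp2 and Arid5b wherever both were called. By fold enrichment this order turned for Wwp2 in Cho2, WT and the deletion. For the other genes the first start of the GENCODE record had the higher summit pileup wherever both were called.

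**Figure D1:**
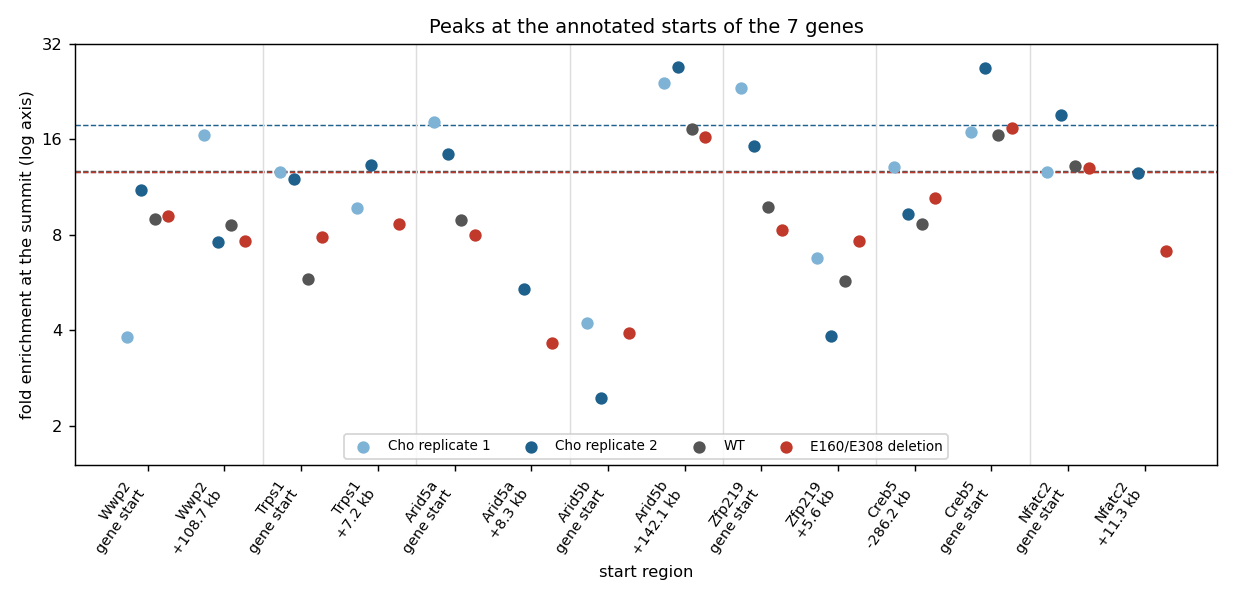
Fold enrichment (log axis) at the 14 start regions with a peak in any library, with distances in kb from the GENCODE gene start. Points are libraries and dashed lines are the medians of all called promoters; the Arid5b start at +142.1 kb stands at 16.3 to 27.1 in the 4 libraries, and its gene start at 4.22 or less.

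The Wwp2 gene (chromosome 8, 109960298 to 110082494, plus strand; ENSMUSG00000031930.9; all positions are in NCBIM37 unless another build is named) had peaks at its first start and at a start 108.7 kb into the gene. At the first start, the summit pileup over the library background was 5.85 in Cho1, 26.6 in Cho2, 38.8 in WT and 31.95 in the deletion. At the internal start it was 27.8, 175, 105 and 92.7. The internal start was thus the higher in each library. The promoter rule took the internal start in Cho1 and the first start in Cho2, so that the Cho mean fold enrichment of 13.8 ± 3.80 (SD, n = 2) joins different starts.

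Within a library, the ratio of the pileups, internal over first, was 4.75 in Cho1 (95% interval 2.18 to 11.8) and 6.58 in Cho2 (4.90 to 8.98). WT gave 2.71 (1.44 to 5.42), and the deletion 2.90 (1.72 to 5.09). All intervals are exact and cover counting error only. The order depended on the measure. By fold enrichment the ratio was 4.33 in Cho1, but 0.686 in Cho2, 0.960 in WT and 0.834 in the deletion.

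The local background differed between the starts. Over the library background, it was 1.93, 1.86 and 2.07 at the first start in Cho2, WT and the deletion, and 22.5, 9.77 and 10.8 at the internal start. Cho1 was called with a constant background, and its fold enrichment was 3.80 at the first start and 16.5 at the internal start.

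The miR-140 hairpin starts at +114.8 kb, downstream of the internal start. Its 3p arm (GRCm38.p6, chromosome 8, 107551288 to 107551308, RefSeq) is printed because the hairpin lies in this end of the gene, with its seed, bases 2 to 8, in capitals. The DNA is the 200 bases ahead of the internal TSS (NCBIM37, chr8:110068766-110068965, plus strand).
miR-140-3p: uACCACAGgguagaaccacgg
Wwp2 internal start: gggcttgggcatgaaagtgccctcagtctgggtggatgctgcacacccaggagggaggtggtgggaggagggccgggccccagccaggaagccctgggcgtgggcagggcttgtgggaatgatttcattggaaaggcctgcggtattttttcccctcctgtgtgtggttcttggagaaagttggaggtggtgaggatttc
This stretch was 60.0% G and C and held 3 CG pairs. The 200 bases ahead of the first start were 62.0% G and C and held 16. The nearest WT sites to the hairpin lay at +110.5 kb and +116.9 kb, with WT fold enrichments of 2.86 and 4.73. Both were also called in Cho2 and the deletion, and neither in Cho1. A site at the hairpin itself was called in Cho2 alone, with a fold enrichment of 3.13.

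The background under the peaks was higher in the body of Wwp2 than in its flanks. The median local background under its peaks, over the library background, was 11.3 in Cho2 (38 peaks), 4.88 in WT (18 peaks) and 4.92 in the deletion (34 peaks). In the flanks of the gene it was 1.70, 1.86 and 1.81. Among genes with 5 or more peaks in the body, 99.3%, 93.1% and 93.1% had a lower body value than Wwp2. The contrast was not limited to Wwp2, and in WT it was larger at Zfp219 (9.87 in the body over 5 peaks, 1.92 in the flanks) and Arid5a (7.43 over 2 peaks, 1.90). The local background is the tag density in a window around a peak, tags of neighbouring peaks included.

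Over the locus as a whole, the value for Wwp2 was 7.33, 4.56 and 3.57, above those of 99.8%, 93.3% and 91.0% of genes with 5 or more peaks, whose medians were 1.46, 2.05 and 1.60. Zfp219 was also high, at 1.90, 5.16 and 3.69 (68.4%, 96.1% and 92.3% of genes lower). Creb5 was the lowest of the 7, at 1.13, 1.25 and 1.08. These values are not given for Cho1, which has no local background.

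**Figure D2:**
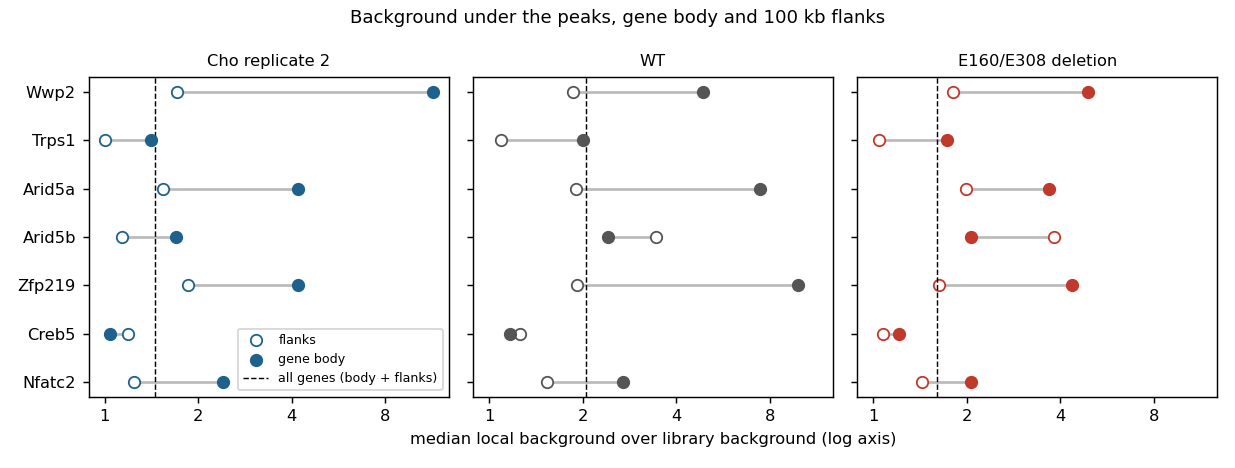
Median local background under the peaks over the library background (log axis) for each gene, in the gene body (filled) and the 100 kb flanks (open), in the 3 libraries with a local background. The Wwp2 body stands at 4.88 to 11.3 and its flanks at 1.70 to 1.86; the dashed line is the median of all genes over body and flanks.

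Peaks were dense at Wwp2 as well, except in Cho1. There were 14, 61, 33 and 56 peaks in the locus, or 4.35, 18.9, 10.2 and 17.4 per 100 kb, in Cho1, Cho2, WT and the deletion. The medians over all genes were 4.35, 9.02, 5.76 and 10.4. Wwp2 was denser than 95.3% of genes in Cho2 and 82.4% in WT, but than 49.9% in Cho1. The strongest WT peak away from any promoter was at +47.1 kb in an intron (chromosome 8, 110007194 to 110007504), with fold enrichments of 16.1 in Cho2, 13.7 in WT and 13.3 in the deletion. The next was intergenic at +136.3 kb, at 17.7, 11.8 and 11.6. Neither was called in Cho1.

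Trps1 (chromosome 15, 50486307 to 50721587, minus strand; ENSMUSG00000038679.8) had the widest gene body of the 7, 235.3 kb. The peak within 1 kb of a start had a fold enrichment of 12.7 in Cho1, 8.74 in Cho2, 5.80 in WT and 8.65 in the deletion. These were weak promoters in the 3 libraries other than Cho1, with 14.9%, 6.4% and 21.6% of called promoters lower. The rule took different summits here, 8.0 kb into the gene in the deletion and within 0.6 kb of the gene start in the others. The Cho mean was 10.7 ± 2.78 (SD, n = 2). A start at +7.2 kb had a peak at 9.71 in Cho1, 13.3 in Cho2 and 8.65 in the deletion, and none in WT.

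Away from its starts, Trps1 had an intronic peak at +186.1 kb, singled out here after its values were seen. Its fold enrichment was 39.7 in Cho1, the highest of any peak at this locus in that library, 22.5 in Cho2, 8.54 in WT and 15.0 in the deletion. The peaks that the rule named were intergenic at +279.2 kb (24.3 in Cho2, 11.3 in WT, 15.1 in the deletion, not called in Cho1) and intronic at +20.3 kb. The intronic peak was called in all 4 libraries, at 5.07, 9.54, 10.5 and 11.1. Peak density at Trps1 was close to or below the median of all genes, at 4.36, 8.72, 3.22 and 8.96 per 100 kb.

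Among the partners of Sox9, Arid5a (chromosome 1, 36364578 to 36380874, plus strand; ENSMUSG00000037447.9) had its promoter summit close to the gene start. The summit lay 60 to 124 bp ahead of the gene start in all 4 libraries. Fold enrichment was 18.2 in Cho1, 14.3 in Cho2 (mean 16.3 ± 2.70, SD, n = 2), 8.89 in WT and 7.99 in the deletion. The Cho libraries lay further apart by summit pileup over the library background, at 30.7 in Cho1 and 132 in Cho2. Of 3 further starts in the GENCODE record, at +4.1, +8.3 and +9.3 kb, only that at +8.3 kb had a peak, at 5.41 in Cho2 and 3.66 in the deletion. The named distal peaks at -54.7 kb and +16.5 kb were called in all 4 libraries, at 12.1 and 10.2 in WT and 9.80 and 8.20 in the deletion.

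Arid5b (chromosome 10, 67558341 to 67741474, minus strand; ENSMUSG00000019947.8) was most open at its internal start, 142.1 kb into the gene. Fold enrichment there was 24.1 in Cho1, 27.1 in Cho2, 17.2 in WT and 16.3 in the deletion. Within 1 kb of the first starts the highest values were 4.22, 2.44 and 3.91 in Cho1, Cho2 and the deletion. Their summits lay 1.4 to 1.6 kb ahead of the GENCODE start, and WT had no peak in this window. Just outside it, an intronic peak at +2.0 kb was called in all 4 libraries, at 8.02, 12.5, 8.20 and 8.93. Its pileup over the library background was 13.2, 49.6, 63.7 and 60.7, against 40.9, 148, 122 and 107 at the internal start. This peak does not enter the values or ratios given for the first start. The internal start exceeded the first in each library with both.

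By summit pileup the internal start of Arid5b exceeded the first start 6.22-fold in Cho1 (95% interval 3.06 to 14.3), 9.63-fold in Cho2 (6.60 to 14.5) and 3.19-fold in the deletion (1.93 to 5.49). By fold enrichment the ratios were 5.70, 11.1 and 4.17, so the order did not depend on the measure. The internal start is in the GENCODE record on NCBIM37 and not in the RefSeq record on GRCm38. For this reason the promoter rule gave 2.44 for Cho2, and the Cho mean of 13.3 ± 15.3 (SD, n = 2) joins different starts. The 200 bases ahead of the internal TSS, read on the strand of the gene (NCBIM37, chr10:67599375-67599574), are printed because this start carried more signal than the first.
Arid5b internal start: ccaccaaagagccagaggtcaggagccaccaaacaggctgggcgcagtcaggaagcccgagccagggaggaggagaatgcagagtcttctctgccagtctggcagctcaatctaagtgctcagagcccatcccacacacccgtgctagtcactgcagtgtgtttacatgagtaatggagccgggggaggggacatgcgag
This stretch was 59.0% G and C and held 5 CG pairs.

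The strongest distal WT peak of Arid5b was intergenic, 4.5 kb ahead of the gene start (chromosome 10, 67745871 to 67746158). Its fold enrichment was 8.02 in Cho1, 27.2 in Cho2, 16.9 in WT and 13.9 in the deletion, above the values given for the first start. The next, in an intron at +85.6 kb, was called in all 4 libraries, at 3.80, 9.04, 11.5 and 12.4. The locus held 22, 51, 26 and 61 peaks, which made 68 sites, 13 of them called in all 4 libraries and 12 in 3.

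Zfp219 (chromosome 14, 52625752 to 52640408, minus strand; ENSMUSG00000049295.9) is the shortest of the 7 genes, 14.7 kb, in a window with several other genes. Its promoter had fold enrichments of 23.2 in Cho1, 15.2 in Cho2 (mean 19.2 ± 5.66, SD, n = 2), 9.83 in WT and 8.27 in the deletion. The summit lay 2 bp from the gene start in Cho1 and about 1 kb into the gene in the other libraries. A start at +5.6 kb was weaker in each library by pileup. The ratio to the first start was 0.278, 0.120, 0.348 and 0.532, with every interval below 1 (the highest bound was 0.825, in the deletion). The strongest distal WT peak lay at +34.7 kb in an intron of the neighbour Arhgef40, at 33.8, 15.0, 14.0 and 11.7. Peaks were dense in Cho1, with 10.7 per 100 kb (96.8% of genes lower), and less so in the other libraries (60.7% to 72.2% lower).

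Creb5 (chromosome 6, 53523378 to 53646001, plus strand; ENSMUSG00000053007.6) had the strongest promoter of the 7 in Cho2 and the deletion under the rule. In Cho2 the rule did not search the Arid5b internal start, which was slightly higher at 27.1. Fold enrichment at the gene start was 16.9 in Cho1, 26.8 in Cho2 (mean 21.9 ± 7.02, SD, n = 2), 16.5 in WT and 17.4 in the deletion. The RefSeq record is 413.1 kb long against 122.6 kb in GENCODE, and adds a start at -286.2 kb. A peak was called there in all 4 libraries, at 13.1, 9.29, 8.64 and 10.5.

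The upstream start of Creb5 had less signal than the start shared by both records. Its pileup was 0.769 of that at the shared start in Cho1 (95% interval 0.461 to 1.27), 0.234 in Cho2 (0.166 to 0.323), 0.457 in WT (0.236 to 0.848) and 0.560 for the deletion list (0.339 to 0.907), so the difference was within counting error in Cho1. The 200 bases ahead of the upstream start were the richest in CG pairs of all 18 start regions, with 24, and 71.0% G and C. The named distal peaks, at -23.8 kb (28.2 in Cho2, 11.03 in WT, 12.5 in the deletion) and +38.3 kb (9.41, 9.24 and 7.38), were not called in Cho1.

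Nfatc2 (chromosome 2, 168301910 to 168427157, minus strand; ENSMUSG00000027544.9) had promoter fold enrichments of 12.7 in Cho1, 19.2 in Cho2 (mean 15.9 ± 4.602, SD, n = 2), 13.2 in WT and 12.96 in the deletion. A group of starts at +11.3 kb had a peak in Cho2 (12.5) and the deletion (7.13) and in neither other library. An intronic peak at +52.1 kb (chromosome 2, 168374878 to 168375221) had 10.98, 21.3, 17.8 and 15.3, and a peak over an exon at +83.1 kb (168343731 to 168344219) had 17.3, 28.8, 17.6 and 20.03. In Cho2, WT and the deletion both were above the promoter of the gene, and in Cho1 the peak over the exon alone was. Downstream of the gene, an intergenic peak at +142.8 kb, singled out here after its values were seen, had 34.2 in Cho1, 9.85 in Cho2, 8.75 in WT and 10.5 in the deletion.

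Across the 7 loci, peaks were joined into 338 sites by their distance from the gene start. Of these, 72 were called in all 4 libraries, 76 in 3, 62 in 2 and 128 in 1. Peaks at other genes were not joined in this way, so these counts cannot be set against all genes. The sites in 1 library were 19 in Cho1, 65 in Cho2, 0 in WT and 44 in the deletion, so the longest lists held most of them. By position, 138 sites were intronic, 129 intergenic and 18 at promoters of the 7 genes. Of the promoter sites 10 were called in all 4 libraries, of the intronic sites 23, and of the intergenic sites 24. All 14 named distal peaks were called in Cho2 and the deletion, and 9 in Cho1. These peaks were picked for their strength in WT, and 95.9% of all WT peaks overlapped a deletion peak. The share of all WT peaks called in the Cho libraries was not computed, so no conclusion is drawn from these counts.

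**Figure D3:**
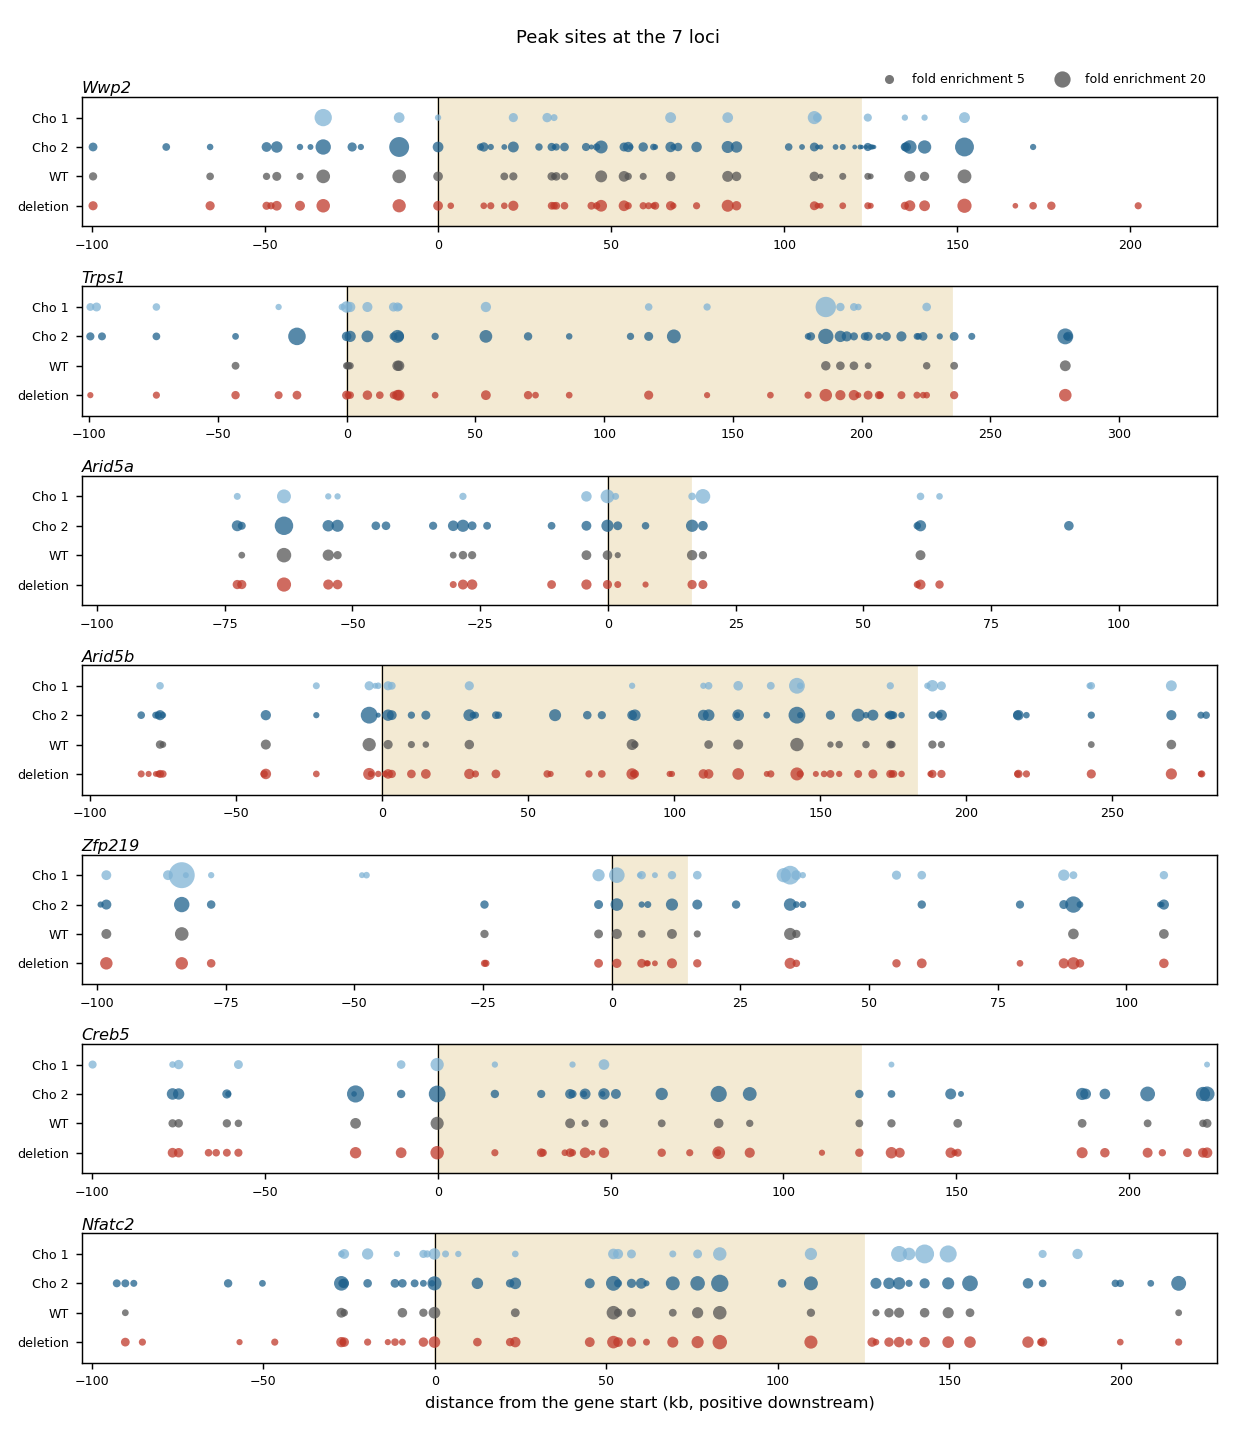
Peak sites at the 7 loci by distance from the gene start (kb), 1 row per library, with the gene body shaded and the area of each point scaled to fold enrichment. A site called in several libraries is drawn at 1 summit, that of WT where WT had it, and Cho2 is shown in the NCBIM37 window. Of the 338 sites, 72 stand in all 4 rows and WT has 0 of its own.

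The comparison of WT with the deletion asks whether chromatin at these genes differed when E160 and E308 of Sox9 were absent. Of 148 WT peaks, 147 overlapped a deletion peak by 1 bp or more (99.3%, exact 95% interval 96.3% to 99.98%), against 95.9% of all WT peaks. The exception lay in an intron of Arid5b at +165.7 kb, with a fold enrichment of 5.34. In the other direction, a WT peak lay under 142 of 289 deletion peaks (49.1%, 43.2% to 55.1%), against 49.4% of all deletion peaks. The 147 deletion peaks without a WT peak were weak, with a median fold enrichment of 4.92 and a median pileup of 10 tags (highest 28), against 8.25 and 23.5 for those with a WT peak. Over all deletion peaks the split was alike, with medians of 4.92 and 8 tags without a WT peak and 9.496 and 22 tags with one.

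Peaks in both libraries differed little in fold enrichment at the 7 loci. Over 139 shared peaks the median log2 ratio of fold enrichment, deletion over WT, was 0.14, beside 0.26 over all 83096 shared peaks. By summit pileup over the library background it was -0.09, beside -0.03. Only 3 of the 139 exceeded 2-fold upward and 0 downward, where 5.8% and 0.0746% of all shared peaks did.

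Those 3 peaks were intronic, at Nfatc2 +109.6 kb (fold enrichment 6.62 in WT and 16.5 in the deletion), Arid5b +14.9 kb (4.11 and 9.09) and Creb5 +42.6 kb (5.07 and 10.8). Their pileups were 8, 5 and 7 tags in WT, and each counting interval of the scaled pileup ratio included 1. The largest fall was at Nfatc2 -9.5 kb, from 8.73 to 4.54, where the pileup ratio was 0.367 (0.121 to 1.04). At this depth none of these differences exceeded counting error. The 1 interval among 139 that excluded 1 belonged to the promoter of the neighbour Hnrnpc in the Zfp219 window (0.673, 0.470 to 0.966). Intervals of shared peaks outside these loci were not counted, so no share over all shared peaks stands beside this count. Among 139 intervals some can exclude 1 by counting error alone, so no change at Hnrnpc is drawn from this interval.

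By gene, the median log2 ratio of fold enrichment ran from -0.04 at Zfp219 (14 shared peaks) to 0.47 at Creb5 (19). Between them were Wwp2 at 0.02 (32), Arid5a at 0.11 (14), Arid5b at 0.15 (23), Nfatc2 at 0.16 (23) and Trps1 at 0.18 (14). Creb5 was the 1 locus above the median of all shared peaks, and by scaled pileup it was also the highest, at 0.21. At the main starts the pileup ratio, deletion over WT, was 0.824 for the Wwp2 first start (0.396 to 1.76), 0.880 for its internal start (0.575 to 1.36), 0.878 for the Arid5b internal start (0.591 to 1.32) and 0.824 for Creb5 (0.524 to 1.31). Each of these intervals included 1.

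**Figure D4:**
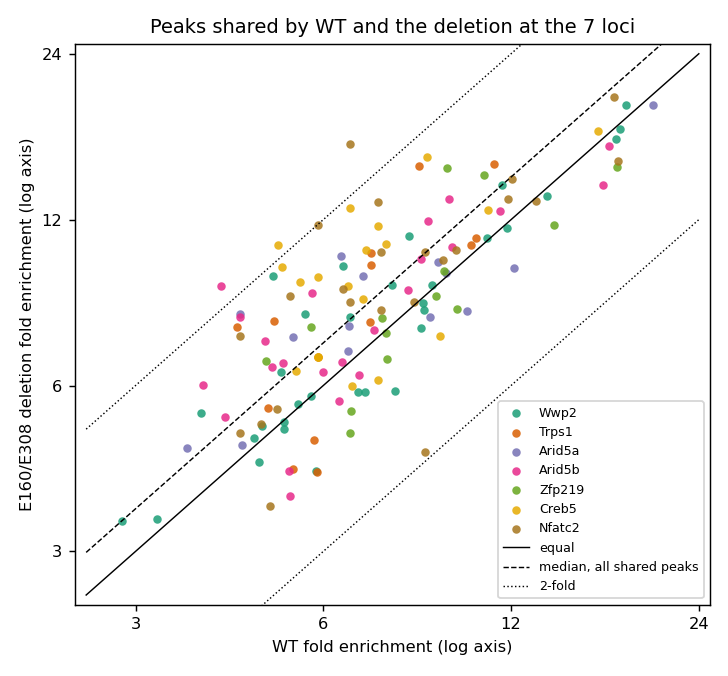
Fold enrichment of the 139 peaks shared by WT and the deletion at the 7 loci (both axes log), 1 point per peak, coloured by locus. Points scatter around the line of equality, 3 lie above the upper 2-fold line and 0 below the lower, and the dashed line is the median ratio of all 83096 shared peaks.

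Sequence under the WT peaks was described in windows of 300 bases on each summit. The letters AACAATG, a match to the core bound by Sox proteins, were found on either strand in 9 of 148 windows (6.08%), beside 2.89% of 90951 windows over all WT peaks. They lay at Nfatc2 (3), Wwp2, Trps1 and Arid5b (2 each), and at no window of Arid5a, Zfp219 or Creb5. Of the 9 windows, 8 were in sites called in all 4 libraries. How many of the 148 windows were in such sites was not counted. By the stricter match of summits within 150 bp, 59 of the 148 WT peaks were called in all 4 libraries. No trait of the 9 windows is drawn from this count. Some of the 8 are printed with 20 bases on each side, on the strand that reads AACAATG in capitals.
Trps1 +191.3 kb (NCBIM37 chr15:50530187-50530233, plus): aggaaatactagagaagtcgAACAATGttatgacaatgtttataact
Trps1 +197.0 kb (chr15:50524558-50524604, plus): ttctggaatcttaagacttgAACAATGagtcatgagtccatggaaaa
Arid5b +188.4 kb (chr10:67553006-67553052, plus): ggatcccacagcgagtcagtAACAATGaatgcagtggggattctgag
Nfatc2 +57.3 kb (chr2:168369887-168369933, plus): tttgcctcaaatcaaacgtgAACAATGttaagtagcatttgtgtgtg
Nfatc2 +69.4 kb (chr2:168357621-168357667, minus): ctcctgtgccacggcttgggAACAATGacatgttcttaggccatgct
Wwp2 +33.5 kb (chr8:109993903-109993949, minus): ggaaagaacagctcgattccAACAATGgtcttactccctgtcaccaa
The peaks at these sites had WT fold enrichments of 3.82 at Wwp2 +33.5 kb to 7.43 at Nfatc2 +57.3 kb. A match of these letters is not a binding site. An inverted pair of such cores, 3 bases apart (paired SOX), was in no window of the 7 loci and in 1 of all.

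The letters TGANTCA, read by AP-1 factors, were in 33 of 148 windows (22.3%), beside 22.2% of all. By locus, they were in 10 of 23 windows at Nfatc2 (43.5%), 7 of 20 at Creb5 (35.0%) and 4 of 14 at Trps1 (28.6%). Arid5b had 7 of 26 (26.9%), Zfp219 2 of 15 (13.3%), Wwp2 2 of 33 (6.06%) and Arid5a 1 of 17 (5.88%). No trait of a locus is drawn from these small counts. The strong intronic peak of Nfatc2 at +52.1 kb held the letters at 2 places, in capitals in the stretch printed here.
Nfatc2 +52.1 kb (NCBIM37 chr2:168375034-168375181, plus): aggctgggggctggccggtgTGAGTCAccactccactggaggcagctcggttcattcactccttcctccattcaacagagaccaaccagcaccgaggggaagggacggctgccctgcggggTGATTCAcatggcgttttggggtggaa
Of the other letters searched on both strands, TGACGTCA (CRE) was in 2 of 148 windows, beside 0.968% of all. The letters AGATAAG, read by GATA factors, were in 1, beside 1.88%. An NFAT core followed after 4 bases by the AP-1 letters (NFAT with AP-1), which overlaps the AP-1 search, was in none, beside 0.107%.

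Other genes of the pathway were counted by the same promoter rule. It used RefSeq starts in Cho2 and GENCODE starts elsewhere, so Cho2 was not searched at the same starts as the other libraries. Of 22 listed partners and targets of Sox9, 20 were in both annotations, and 14, 17, 19 and 19 of them had a promoter peak in Cho1, Cho2, WT and the deletion, beside 62.6%, 69.3%, 65.9% and 71.4% of all genes. Among the partners, Med25, the Mediator subunit that meets Sox9 through Wwp2, had 5.91, 4.86, 5.84 and 5.95, and Phf2, the demethylase partner of Arid5b, had a promoter peak in WT (3.88) and the deletion (4.74) and in neither Cho library. Among the targets, Comp had none in any library. Sox9 itself had 18.6, 11.8, 9.47 and 8.68.

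Of 23 listed relatives of the 7 genes, 22 were in both annotations, and 19, 18, 20 and 21 had a promoter peak, beside the same shares of all genes (62.6% to 71.4%). Wwp1, a close relative of Wwp2, had 26.2, 28.0, 17.1 and 16.2, above Wwp2 in each library. Nfatc3 had 18.2, 21.4, 14.2 and 12.7. Nfatc4 had 6.76 in Cho1, no peak at its RefSeq starts in Cho2, 4.29 in WT and 3.52 in the deletion. Gata1, a factor of red cells, had no promoter peak in any library.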

How the data were processed

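ATAC-Seq was performed on primary rib chondrocytes in 4 libraries, grouped by the sample labels (Cho1 and Cho2 are the Cho replicates). Per the study's methods, the authors trimmed reads with fastp, aligned them to mm9 with Bowtie2 2.4.4, removed duplicates with Picard and called peaks per library with MACS2 2.2.4 at a q-value of 0.05. The deposited lists give a fold enrichment (pileup at the summit plus 1, as a ratio to the background plus 1), the −log10 of the p-value and q-value, and a score of 10 times the −log10 q-value. Cho2 was read as GRCm38 (mm10), since its positions did not match mm9. Cho1 had 1 constant background and several summits in some intervals.

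The entry of highest fold enrichment was kept per interval. Genes came from GENCODE on NCBIM37 and RefSeq on GRCm38, and no coordinates were converted. Distances from gene starts were compared between builds through promoter sequences found once in NCBIM37, with 1 constant spacing across each locus and 600 kb beyond. Summit pileups were solved from columns 7 and 8 of the lists under MACS2's Poisson model (solved for 98.3% of peaks in Cho2 and 99.95% or more elsewhere). The solution was run on data simulated from the same model, which cannot show whether the lists follow that model. The library background is the most frequent solved background. Shares and ratios have 95% exact intervals that cover counting error only. No p-value was computed, since WT and the deletion had 1 library each. Overlaps used bedtools 2.31.1, and other steps Python 3.11.15, numpy 2.4.6, pandas 2.3.3, scipy 1.17.1 and matplotlib 3.10.9.

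The named peaks were the promoter peaks and, per locus, the 2 WT peaks of highest fold enrichment outside promoters, plus any shared peak past 2-fold whose interval excluded 1, which none was. The genes, lists and tests were chosen with earlier results of these data known. Alternatives covered stricter q-values, other windows, overlaps and measures, and equal numbers of peaks. Signal tracks and other assays of the study were not analysed here.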

Additional observations from a re-analysis of the deposited data

How the results depend on the processing

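No paired analysis was possible because each genotype had 1 library only. Promoter counts of the 7 genes stayed at 6 or 7 per library under each alternative run. With the gene body alone, the loci held 52, 159, 68 and 143 peaks in Cho1, Cho2, WT and the deletion. Creb5, whose RefSeq record is longer, gave 41 of the Cho2 peaks, against 7 in WT and 16 in the deletion. With equal numbers of the strongest peaks, Cho2 held 150 and the deletion 135. The share of WT peaks that overlapped a deletion peak was then 83.3%, and the share of deletion peaks that overlapped a WT peak 74.8%. With all peaks kept, the latter share was 40.1% when at least 50% of the deletion peak had to overlap. Shares over all peaks of the libraries were not computed at these settings, so these values are not read as a trait of the 7 loci. The median log2 ratio of deletion to WT was 0.62 by −log10 q-value and reversed to -0.088 by summit pileup over library background (all shared peaks: 0.72 and -0.03). By fold enrichment, an alternative added after the data were seen, the Wwp2 internal start over the first start reversed to 0.686 in Cho2, 0.960 in WT and 0.834 in the deletion. The Wwp2 local background over library background, also added later, was 11.3 in the gene body of Cho2, and in the flanks 1.70 in Cho2, 1.86 in WT and 1.81 in the deletion. Without Cho1 or without Cho2, the Cho mean fold enrichments at the promoters ran from 2.44 to 26.8. Divided by the median of all called promoters, which changes the scale, the 7 Cho means became 0.961 for Wwp2, 0.745 for Trps1, 1.12 for Arid5a, 1.02 for Arid5b, 1.34 for Zfp219, 1.42 for Creb5 and 1.04 for Nfatc2. Of 60 values of the main results under an alternative, 42 stayed within the limits set for them. Depth limits single peaks: the 3 shared peaks past 2-fold had 8, 5 and 7 tags in WT.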
